A study of Mus musculus with 11 samples.

Results

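Arteries, veins and capillaries are lined by endothelial cells that keep different sets of transcripts, and 9 genes of these sets were followed across endothelium of gliomas and of healthy brain. The arterial genes were Efnb2, Bmx, Mgp, Gja4, Gja5 and Sema3g, and the venous or capillary genes were Nr2f2, Ephb4 and Car4. They were taken by name, 9 of the 45791 genes listed in each library, and all 9 were among the 15604 genes tested. The 11 libraries hold RNA bound to tagged ribosomes of adult C57BL/6 mice, pulled down by translating ribosome affinity purification. In 2 knockout tumour and 3 wild type tumour libraries the source was a glioma grown from GL261, a mouse glioma cell line injected into the brain, and in 3 knockout brain and 3 wild type brain libraries it was healthy brain. Knockout mice were Eltd1-/-. Eltd1, now called Adgrl4, encodes a receptor of the adhesion GPCR family found on endothelium. All mice, wild type included, carried the ribosomal protein L10a fused to eGFP under the VE-cadherin promoter, so the tag follows the activity of an endothelial promoter and not an arterial or venous one. The labels' protocol names 3 mice per group, while the knockout tumour group held 2 libraries here. The disrupted part of Eltd1 is not stated in the labels.

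Arterial endothelium carries ephrin-B2, the product of Efnb2, on its surface, and venous endothelium carries its receptor, EphB4, the product of Ephb4. Signalling through this pair keeps the vessel types apart during development. Notch signalling favours the arterial state, and the nuclear receptor COUP-TFII, the product of Nr2f2, favours the venous state and restrains Notch in veins. In the brain, arterial, capillary and venous transcripts grade into one another along the vessel tree.

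The promoters of 3 genes that fell in tumours and of the venous pair that did not pass the test are shown first. Each line gives the 250 bases before the annotated start of the gene, 5′ to 3′ on the strand of the gene, from RefSeq on GRCm38.p6. Capitals mark matches on either strand to the motifs CACCC of KLF factors, TGGGAA of RBPJ (the DNA-binding partner of Notch), ACAAT of SOX factors and AGGTCA of COUP-TF receptors. The Efnb2 stretch is chr8:8661243-8661492 (minus strand), the Bmx stretch chrX:164258194-164258443 (minus), the Car4 stretch chr11:84957504-84957753 (plus), the Ephb4 stretch chr5:137349859-137350108 (plus) and the Nr2f2 stretch chr7:70366747-70366996 (minus).
Efnb2: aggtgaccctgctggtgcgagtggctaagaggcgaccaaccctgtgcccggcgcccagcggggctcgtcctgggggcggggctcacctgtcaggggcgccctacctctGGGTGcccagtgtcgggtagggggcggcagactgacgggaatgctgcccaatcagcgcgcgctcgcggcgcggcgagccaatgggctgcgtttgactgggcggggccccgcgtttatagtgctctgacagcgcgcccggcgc
Bmx: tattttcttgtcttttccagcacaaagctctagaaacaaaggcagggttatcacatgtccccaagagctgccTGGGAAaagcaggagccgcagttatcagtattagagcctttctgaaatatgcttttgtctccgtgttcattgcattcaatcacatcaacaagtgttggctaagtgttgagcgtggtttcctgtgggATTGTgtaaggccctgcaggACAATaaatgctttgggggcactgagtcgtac
Car4: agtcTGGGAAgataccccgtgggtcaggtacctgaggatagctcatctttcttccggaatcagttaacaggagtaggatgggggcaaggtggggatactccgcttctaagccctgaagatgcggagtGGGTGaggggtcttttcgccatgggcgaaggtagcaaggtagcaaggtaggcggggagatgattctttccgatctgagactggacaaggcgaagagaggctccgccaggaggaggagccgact
Ephb4: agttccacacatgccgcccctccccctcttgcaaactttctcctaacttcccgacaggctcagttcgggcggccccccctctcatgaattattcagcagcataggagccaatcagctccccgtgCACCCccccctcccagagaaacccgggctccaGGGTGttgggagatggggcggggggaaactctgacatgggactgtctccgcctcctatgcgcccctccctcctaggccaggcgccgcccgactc
Nr2f2: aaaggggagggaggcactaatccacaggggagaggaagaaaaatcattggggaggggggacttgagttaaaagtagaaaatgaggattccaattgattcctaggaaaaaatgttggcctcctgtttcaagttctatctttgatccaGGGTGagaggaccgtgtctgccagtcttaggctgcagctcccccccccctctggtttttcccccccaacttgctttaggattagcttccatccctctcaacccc

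RefSeq promoters were matched for 8 of the 9 genes, all but Mgp. CACCC was found in 6 of the 8 (Efnb2, Gja5, Sema3g, Nr2f2, Ephb4 and Car4), and in 52.0% of 32851 mouse promoter stretches of the same length. Gja5 held 4 matches and Ephb4 held 2. Efnb2, which fell in tumours, held CACCC and none of the other motifs, as did Ephb4 and Nr2f2, which did not pass. TGGGAA was found in 2 of the 8, Bmx and Car4, and in 21.6% of all promoters. ACAAT was found in 2 of the 8, with 2 matches in Bmx and 1 in Gja4, and in 27.7% of all promoters. AGGTCA was found in 0 of the 8 and in 14.0% of all promoters. No match overlapped another in the windows of the 8 genes, and a match describes letters in this window only.

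The endothelial label was checked on 11 general endothelial markers, all above 0 in every library. Their summed FPKM (fragments per kilobase of gene length after scaling for the library's size) ran from 287 to 806 in tumours, below the range of 1246 to 1925 in brains. The 10 markers of neurons, a cell type that should lack the tag, summed to between 107 and 3078 FPKM in tumours, highest in wild type tumour 3, and to between 4724 and 6407 FPKM in brains. The 6 markers of glioma and progenitor cells summed to between 1753 and 2653 FPKM in tumours and between 304 and 527 FPKM in brains. Mural cell markers, of which 10 were listed, summed to between 20.2 and 99.7 FPKM in tumours and between 6.94 and 31.5 FPKM in brains, and Myh11, a marker of arterial smooth muscle, was at most 0.825 FPKM in any library. The 6 astrocyte markers summed to between 250 and 697 FPKM in tumours and between 857 and 1546 FPKM in brains, and the 6 oligodendrocyte markers to between 280 and 817 FPKM in tumours and between 755 and 1014 FPKM in brains. The part of these other cells in the results was not tested. Wild type tumour 2 stood apart, with 25.4% of expressed genes listed at 0, against 0.945% to 9.78% in the other libraries. It listed all 6 arterial genes and Car4 at 0, and because a listed 0 can be a failed estimate, values are given library by library. Adgrl4 was 11.5 and 5.82 FPKM in knockout tumours and 45.0, 192 and 27.4 FPKM in wild type tumours. Knockout brains had 21.6, 23.6 and 22.2 FPKM and wild type brains 166, 82.7 and 153 FPKM, so the genotypes did not overlap in either tissue. On log2(FPKM + 1) the knockout minus wild type difference was -2.78 in tumour (SE 0.69, limma unadjusted p = 0.00178, limma adjusted p = 0.901). In brain it was -2.46 (SE 0.62, limma unadjusted p = 0.00189). Neither passed after adjustment.

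**Figure D1:**
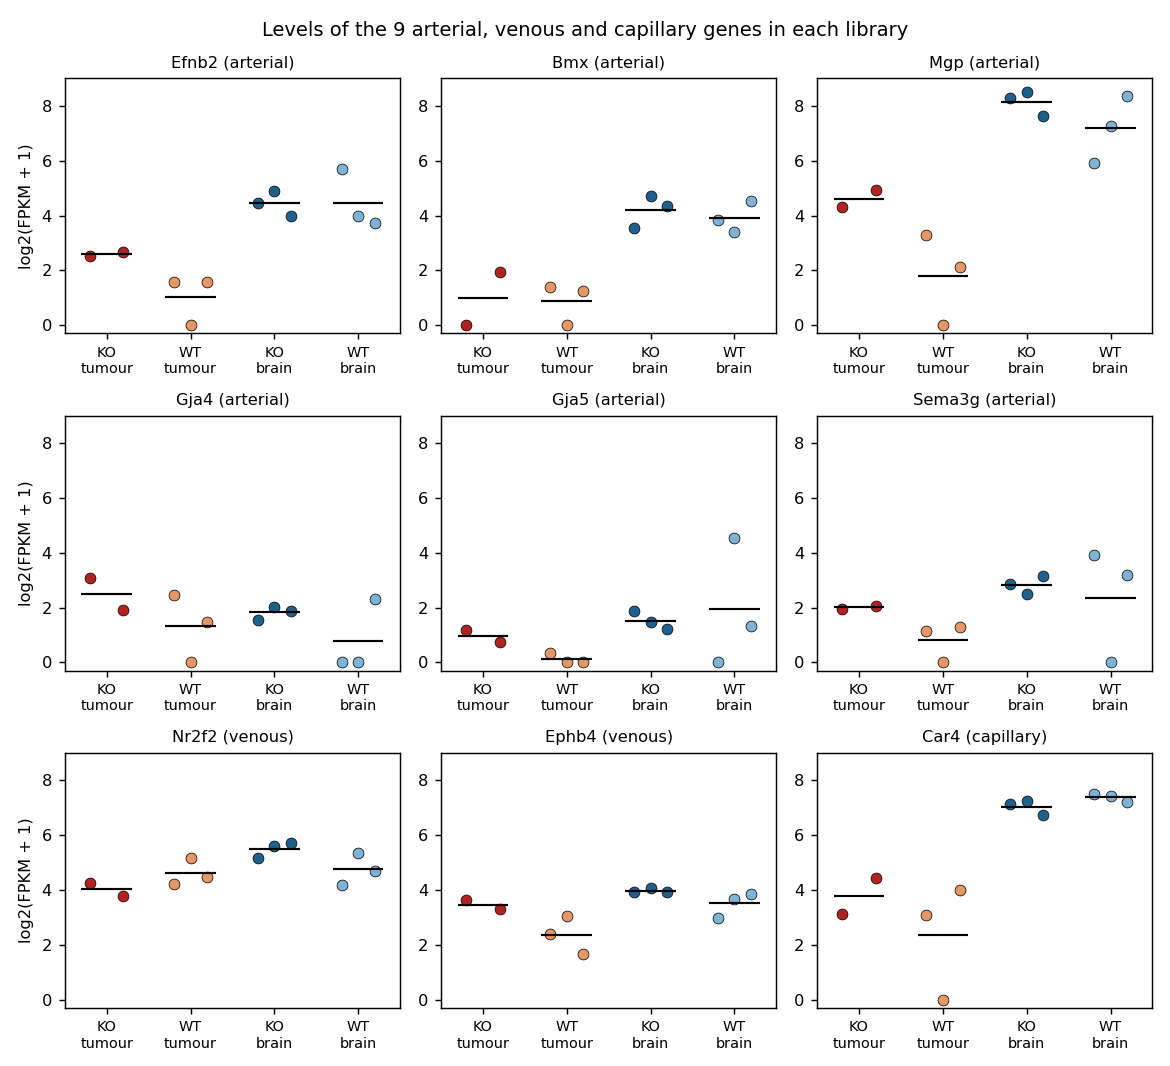
Level of each of the 9 genes in every library, as log2(FPKM + 1) on the vertical axis, for knockout (KO) and wild type (WT) tumours and brains; points are libraries and bars are means of these log2 values. For Efnb2, Bmx, Mgp and Car4 all 5 tumour points lie below all 6 brain points, while the tumour and brain points of the other 5 genes overlap.

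Tumour endothelium was first set against brain endothelium. Of the 9 genes, 4 fell in tumours in the mean of both genotypes: the arterial genes Mgp, Bmx and Efnb2 and the capillary gene Car4. None rose. The remaining 5 genes, Gja4, Gja5, Sema3g, Nr2f2 and Ephb4, did not pass. Among all 15604 genes, limma called 30.2% in this comparison (adjusted p under 0.05), with 17.6% lower and 12.6% higher in tumour. When libraries were set relative to general endothelial markers, Efnb2 no longer passed, Gja4 rose, and Gja5, Sema3g, Nr2f2 and Ephb4 changed sign, as detailed further on. All changes are on the log2(FPKM + 1) scale, which understates the change of low genes. The RNA is bulk RNA, so fewer cells of a vessel type and less RNA per cell cannot be told apart.

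Efnb2 lies on chromosome 8 (chr8:8617235-8661242 in GRCm38). Its level was 4.82 and 5.35 FPKM in knockout tumours and 1.95, 0 and 1.98 FPKM in wild type tumours, against 21.0, 29.0 and 15.0 FPKM in knockout brains and 50.3, 14.8 and 12.3 FPKM in wild type brains. The highest tumour library stood below the lowest brain library, and wild type brain 1 was far above the others. Efnb2 fell by 2.64 in the mean of both genotypes (SE 0.50, limma adjusted p = 0.00312). In wild type mice the change was -3.42 (SE 0.67, limma adjusted p = 0.00667), and in knockout mice it was -1.85 (SE 0.75, limma adjusted p = 0.156) and did not pass. The difference between these changes was 1.57 (SE 1.01, limma adjusted p = 1.00, unadjusted p = 0.146), so the genotypes were not shown to differ in it.

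Bmx (chrX:164192842-164258193) encodes a cytoplasmic tyrosine kinase of arterial endothelium. It was listed at 0 and 2.87 FPKM in knockout tumours and at 1.66, 0 and 1.40 FPKM in wild type tumours, against 10.7, 25.4 and 19.5 FPKM in knockout brains and 13.2, 9.62 and 22.2 FPKM in wild type brains. All tumour values lay below all brain values, and the genotypes overlapped within each tissue. Bmx fell by 3.13 in the mean of both genotypes (SE 0.53, limma adjusted p = 0.00158). The change was -3.23 in knockouts (SE 0.79, limma adjusted p = 0.0320) and -3.03 in wild types (SE 0.71, limma adjusted p = 0.0138). The knockout call was lost when any 1 knockout library was left out (limma adjusted p from 0.0573 to 0.339), and the wild type call when wild type tumours 2 and 3 were left out together (limma adjusted p = 0.103).

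Mgp (chr6:136872435-136875823) encodes matrix Gla protein, a secreted protein that binds bone morphogenetic proteins and keeps vessel walls from calcifying. It had the highest level of the arterial genes in every brain library. The values were 18.7 and 29.3 FPKM in knockout tumours and 8.86, 0 and 3.33 FPKM in wild type tumours, against 313, 358 and 199 FPKM in knockout brains and 59.8, 154 and 327 FPKM in wild type brains. Tumour and brain did not overlap, and both knockout tumours stood above all 3 wild type tumours. Mgp fell by 4.46 in the mean of both genotypes (SE 0.58, limma adjusted p = 0.000330). The change was -3.53 in knockouts (SE 0.87, limma adjusted p = 0.0325) and -5.38 in wild types (SE 0.78, limma adjusted p = 0.00126), and the difference between them, 1.85 (SE 1.17), did not pass (limma adjusted p = 1.00). The knockout call was lost when any 1 knockout library was left out (limma adjusted p from 0.0675 to 0.271). Mgp is also made by mural cells and fibroblasts. The summed FPKM of 10 mural markers is given above, and 6 fibroblast markers summed to between 17.8 and 60.1 FPKM in tumours and between 10.7 and 53.7 FPKM in brains, ranges that overlap. The fibroblast markers differed in direction. Of 5 tested, 2 rose and 0 fell in the mean of both genotypes, with a list median of -0.88. Overlapping sums therefore do not show an equal share of fibroblasts, and the part of these cells was not tested.

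Gja4 (chr4:127311420-127314039) and Gja5 (chr3:97032402-97053634) encode connexins that couple arterial endothelial cells. Gja4 was 7.49 and 2.74 FPKM in knockout tumours and 4.50, 0 and 1.79 FPKM in wild type tumours, against 1.94, 3.08 and 2.70 FPKM in knockout brains and 0, 0 and 4.01 FPKM in wild type brains. It was the arterial gene with a positive tissue difference, 0.60 in the mean of both genotypes (SE 0.61, 95% interval -0.73 to 1.93, limma adjusted p = 0.481), and its groups overlapped throughout. Gja5 was 1.28 and 0.668 FPKM in knockout tumours and 0.264, 0 and 0 FPKM in wild type tumours, against 2.63, 1.79 and 1.32 FPKM in knockout brains and 0, 22.3 and 1.48 FPKM in wild type brains. Wild type brain 2 held nearly all of its wild type brain signal, and the difference of -1.20 (SE 0.69, 95% interval -2.71 to 0.31, limma adjusted p = 0.214) did not pass.

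Sema3g (chr14:31217873-31230352) encodes a semaphorin secreted by arterial endothelium. It was 2.85 and 3.18 FPKM in knockout tumours and 1.22, 0 and 1.42 FPKM in wild type tumours, against 6.18, 4.57 and 7.82 FPKM in knockout brains and 13.9, 0 and 8.14 FPKM in wild type brains. Tumour and brain overlapped through wild type brain 2, and 1 library of each tissue was listed at 0. Sema3g had a tissue difference of -1.19 (SE 0.68, limma adjusted p = 0.210), which passed when wild type brain 2, its brain library at 0, was left out (-1.78, limma adjusted p = 0.0196).

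Nr2f2 (chr7:70351946-70366746) and Ephb4 were the genes of the 9 above 0 in every library. Nr2f2 was 18.1 and 12.7 FPKM in knockout tumours and 17.7, 34.6 and 21.2 FPKM in wild type tumours, against 35.2, 47.8 and 50.7 FPKM in knockout brains and 17.2, 39.7 and 24.9 FPKM in wild type brains. Wild type tumours and brains covered nearly the same range, whereas both knockout tumours lay below all 3 knockout brains. The tissue difference was -1.48 in knockouts (SE 0.48, limma adjusted p = 0.0850) and -0.13 in wild types (SE 0.43, 95% interval -1.06 to 0.81, limma adjusted p = 0.868). Neither passed, and the difference between them was -1.36 (SE 0.64, 95% interval -2.76 to 0.05, unadjusted p = 0.0572, limma adjusted p = 1.00). Without wild type tumour 2, which leaves the knockout values as they are and changes the pooled spread, the knockout difference passed (limma adjusted p = 0.0448). In the mean of both genotypes Nr2f2 differed by -0.80 (SE 0.32, 95% interval -1.51 to -0.10, limma adjusted p = 0.0796). That difference did not pass with all libraries. It passed with library weights, without wild type tumour 2 and without wild type brain 1 (limma adjusted p = 0.00602, 0.0354 and 0.0474).

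Ephb4 (chr5:137350109-137374522) was 11.3 and 8.81 FPKM in knockout tumours and 4.30, 7.22 and 2.15 FPKM in wild type tumours, against 14.3, 15.7 and 14.1 FPKM in knockout brains and 6.95, 11.8 and 13.5 FPKM in wild type brains. Tumour and brain overlapped through wild type brain 1. The difference in the mean of both genotypes was -0.83 (SE 0.39, 95% interval -1.69 to 0.03, limma adjusted p = 0.136). It passed with library weights (limma adjusted p = 0.0227). Car4 (chr11:84957754-84966054) encodes a membrane-bound carbonic anhydrase of brain capillaries. It was 7.77 and 20.8 FPKM in knockout tumours and 7.45, 0 and 15.0 FPKM in wild type tumours, against 139, 152 and 105 FPKM in knockout brains and 179, 171 and 146 FPKM in wild type brains. Even the highest tumour library was far below the lowest brain library, and brain libraries were close to one another. Car4 fell by 4.13 in the mean of both genotypes (SE 0.61, limma adjusted p = 0.000670). In wild types it fell by 5.01 (SE 0.81, limma adjusted p = 0.00241), and in knockouts the change of -3.25 (SE 0.90, limma adjusted p = 0.0528) did not pass with all libraries and passed without wild type tumour 2 (limma adjusted p = 0.00201).

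**Figure D2:**
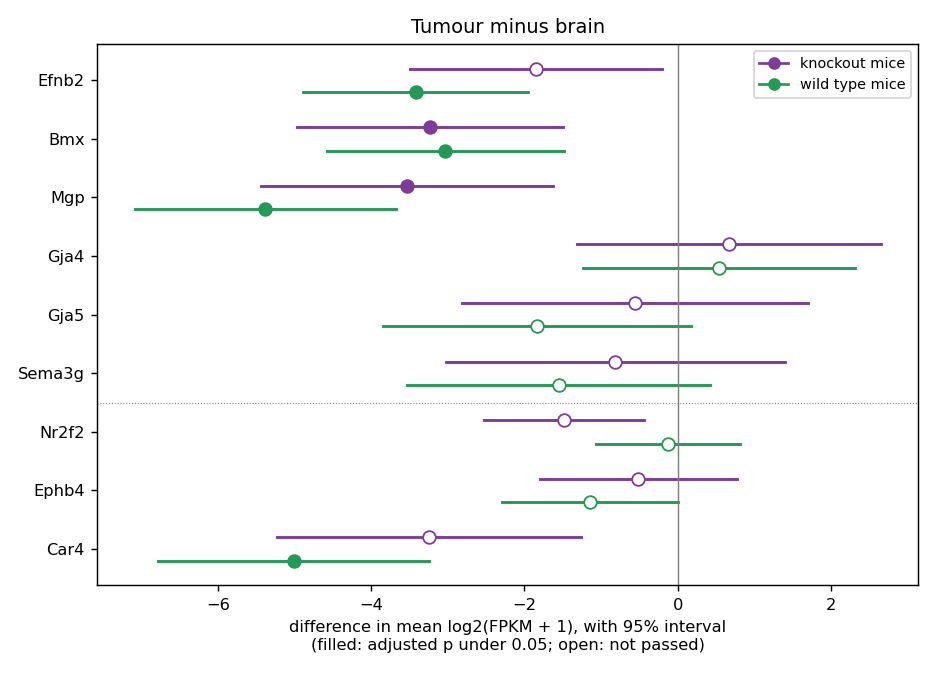
Tumour minus brain difference in mean log2(FPKM + 1) for each gene in knockout and wild type mice, with 95% intervals; filled points passed at an adjusted p under 0.05. In wild types Efnb2, Bmx, Mgp and Car4 are filled, and in knockouts Bmx and Mgp are, while Gja4 alone has points right of 0 on this scale.

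By genotype, 2 of the 9 genes fell in knockout tumours, where 7.08% of all genes were called, 2.29% lower and 4.79% higher. In wild type tumours 4 of the 9 fell, where 19.4% of all genes were called, 11.7% lower and 7.7% higher. When the 6 wild type libraries were fitted by themselves, Mgp was the 1 member that passed, and Efnb2, Bmx and Car4 had limma adjusted p = 0.0761, 0.0706 and 0.0510. That fit called 3.93% of all genes, 2.75% higher and 1.19% lower. With the 5 knockout libraries by themselves, Efnb2, Nr2f2 and Car4 fell too (limma adjusted p = 0.0367, 0.0329 and 0.0169), in a fit that called 18.0% of all genes, 8.47% higher and 9.5% lower. The 4 genes that did not overlap between the tissues were Efnb2, Bmx, Mgp and Car4, and 12.3% of all genes tested lay wholly lower in tumours. Among the 11 general endothelial markers 8 did so. None of the 9 lay wholly higher in tumours, where 8.73% of all genes did.

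The ratio of Efnb2 to Ephb4, taken on FPKM and thus per length, followed the same order of tissues without separating them. It was 0.428 and 0.607 in knockout tumours and 0.453 and 0.920 in wild type tumours 1 and 3, with Efnb2 listed at 0 in wild type tumour 2. It was 1.47, 1.85 and 1.07 in knockout brains and 7.24, 1.26 and 0.909 in wild type brains. Ephb4 was thus the higher of the pair in the tumours with a ratio, and Efnb2 the higher in 5 of 6 brains. Wild type tumour 2 has no ratio, as its Efnb2 value of 0 can be a failed estimate. Summed without Mgp, the arterial genes reached 16.4 and 14.8 FPKM in knockout tumours and 9.59, 0 and 6.59 FPKM in wild type tumours, against 42.4, 63.8 and 46.4 FPKM in knockout brains and 77.4, 46.7 and 48.1 FPKM in wild type brains. The sum of Nr2f2 and Ephb4 was 29.3 and 21.5 FPKM in knockout tumours and 22.0, 41.8 and 23.4 FPKM in wild type tumours, against 49.4, 63.6 and 64.8 FPKM in knockout brains and 24.1, 51.5 and 38.4 FPKM in wild type brains. The arterial sums of the tissues did not overlap, and the sums of the venous pair did. With Car4 added to the pair, the sum ran from 29.4 to 42.3 FPKM in tumours and from 169 to 223 FPKM in brains. Those sums did not overlap, and neither did the sums of the general endothelial markers.

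The order of the 4 groups differed between genes. Efnb2 was highest in wild type brains, then knockout brains, knockout tumours and wild type tumours, and the brain groups overlapped while the other neighbours did not. Mgp had the same tumour order with knockout brains first. Bmx and Car4 separated brain from tumour, and in both tissues the genotypes overlapped. For Nr2f2, from knockout brains through wild type brains and wild type tumours to knockout tumours, all neighbours overlapped. For Ephb4, knockout brains lay above wild type brains without overlap, wild type brains and knockout tumours overlapped, and wild type tumours lay lowest. For Gja4 all neighbours overlapped. Gja5 and Sema3g shared the order of Efnb2, with overlap between the brain groups.

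Because the general endothelial markers were lower in tumours too, each library was also set relative to the mean log2(FPKM + 1) of the 11 endothelial genes. This moved the median of all genes in the mean of both genotypes from -0.25 to 1.23, and the share of calls that were higher in tumour from 41.6% to 97.4%. On this scale limma called 47.4% of all genes, 46.2% higher and 1.22% lower. Of the 9 genes, 3 still fell relative to endothelium. Mgp had -2.97 (SE 0.63, limma adjusted p = 0.00214), Car4 -2.64 (SE 0.70, limma adjusted p = 0.00839) and Bmx -1.64 (SE 0.63, limma adjusted p = 0.0475). Efnb2 had -1.15 (SE 0.59, limma adjusted p = 0.129) and no longer passed. Gja4 rose by 2.09 on this scale (SE 0.66, limma adjusted p = 0.0201). Nr2f2, Ephb4, Gja5 and Sema3g changed sign, to 0.69, 0.66, 0.29 and 0.30, and did not pass. Within wild types, where 38.0% of all genes were called on this scale (37.2% higher and 0.827% lower), Mgp with -3.78 (SE 0.84, limma adjusted p = 0.00450) and Car4 with -3.41 (SE 0.94, limma adjusted p = 0.0139) passed, and Nr2f2 rose by 1.48 (SE 0.47, limma adjusted p = 0.0275). Within knockouts 23.0% of all genes were called (22.8% higher and 0.135% lower). There 0 of the 9 passed with limma, and 1 had an unadjusted p under 0.05, Mgp with -2.16 (SE 0.94, limma adjusted p = 0.118). Car4 was the 1 gene whose tumour and brain libraries stayed apart, against 0.327% of all genes.

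**Figure D3:**
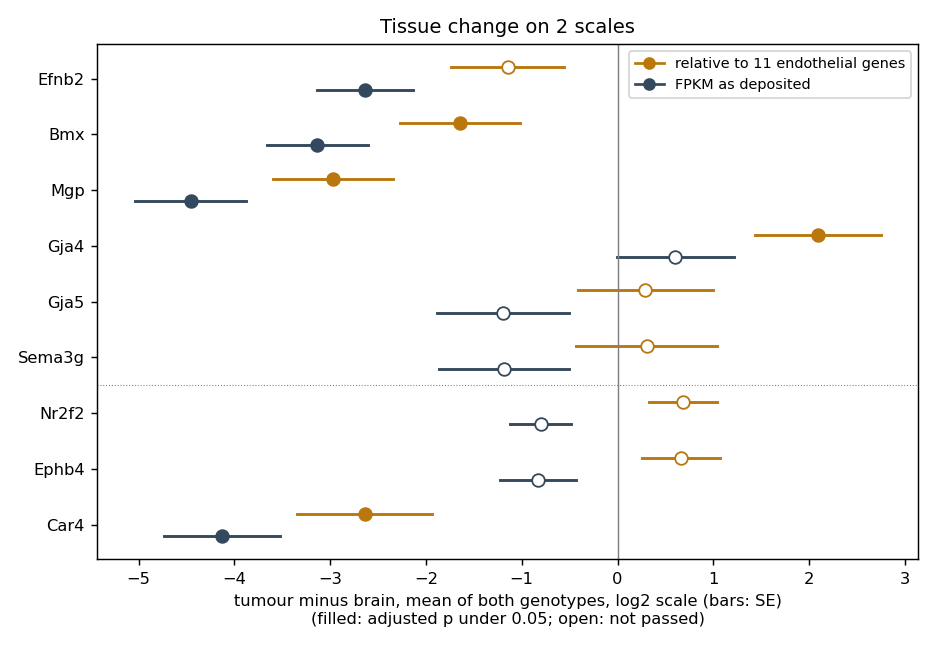
Tumour minus brain change of each gene, mean of both genotypes, on the log2 scale with SE bars, relative to the 11 endothelial genes and on FPKM as deposited; filled points passed at an adjusted p under 0.05. Mgp, Car4 and Bmx are filled and left of 0 on both scales, and Gja4 is filled at 2.09 only relative to the endothelial genes.

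Knockout tumours were next compared with wild type tumours, and knockout brains with wild type brains. None of the 9 genes passed in either tissue, and neither did Adgrl4, the targeted gene. A gene that did not pass between genotypes is therefore not shown to be unchanged. In tumour limma called 3 of all genes (0.0192%), and 1 of the 9, Mgp, had an unadjusted p under 0.05. In brain limma called 1 gene (0.00641%), and 0 of the 9 had an unadjusted p under 0.05. The same call share of 0.00641% and 0 of the 9 held for the mean of both tissues, where Mgp again had an unadjusted p under 0.05, and for the difference of the genotype effects, where 0 of the 9 had one.

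Mgp was higher in both knockout tumours, at 18.7 and 29.3 FPKM, than in the wild type tumours at 8.86, 0 and 3.33 FPKM, and the difference of 2.81 had a 95% interval from 0.90 to 4.71 (SE 0.87, unadjusted p = 0.00766, limma adjusted p = 1.00). Without wild type tumour 2, where Mgp and Efnb2 were listed at 0, it was 1.90 (SE 0.70). Efnb2 differed by 1.56, with a 95% interval from -0.09 to 3.20, and by 1.04 without that library (limma adjusted p = 1.00 in both). Ephb4 differed by 1.09 (95% interval -0.20 to 2.37, limma adjusted p = 1.00). Both knockout tumours lay above all 3 wild type tumours for 5 of the 9 genes, Efnb2, Mgp, Gja5, Sema3g and Ephb4, as did 10.8% of all genes and 4 of the 11 endothelial markers. Relative to the endothelial genes this held for 2 of the 9, Mgp and Ephb4, and for 2.16% of all genes. Leaving out wild type tumour 2, the library with most zeros, can only keep or add genes. The 5 genes therefore had to remain, which is no test of that library. The share of all genes became 16.3%, with 8 of the 11 endothelial markers. The mural marker sum was also higher in knockout tumours, from 76.7 to 99.7 FPKM against 20.2 to 62.7 FPKM in wild type tumours, and so was the fibroblast marker sum, from 58.4 to 60.1 FPKM against 17.8 to 33.7 FPKM. Single markers did not all follow these sums. The mural marker Pdgfrb was 1.23 and 1.08 FPKM in knockout tumours and 1.30, 0 and 2.22 FPKM in wild type tumours. Of 8 mural and 5 fibroblast markers tested, 0 passed. The part of mural cells and fibroblasts in the Mgp difference was not tested.

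Nr2f2 had the opposite sign in the tissues, -0.60 in tumour (95% interval -1.65 to 0.44) and 0.75 in brain (95% interval -0.19 to 1.69), and neither passed (limma adjusted p = 1.00 in both). In brain Ephb4 was the 1 gene of the 9 with all knockout libraries above all wild type libraries, as 4.68% of all genes were, and its difference was 0.46 (95% interval -0.69 to 1.61). Efnb2 had a brain difference of -0.01 with a 95% interval from -1.48 to 1.46, a wide range of differences that these libraries allow. The interval is not a limit of detection, as Adgrl4 with -2.46 in brain did not pass either.

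**Figure D4:**
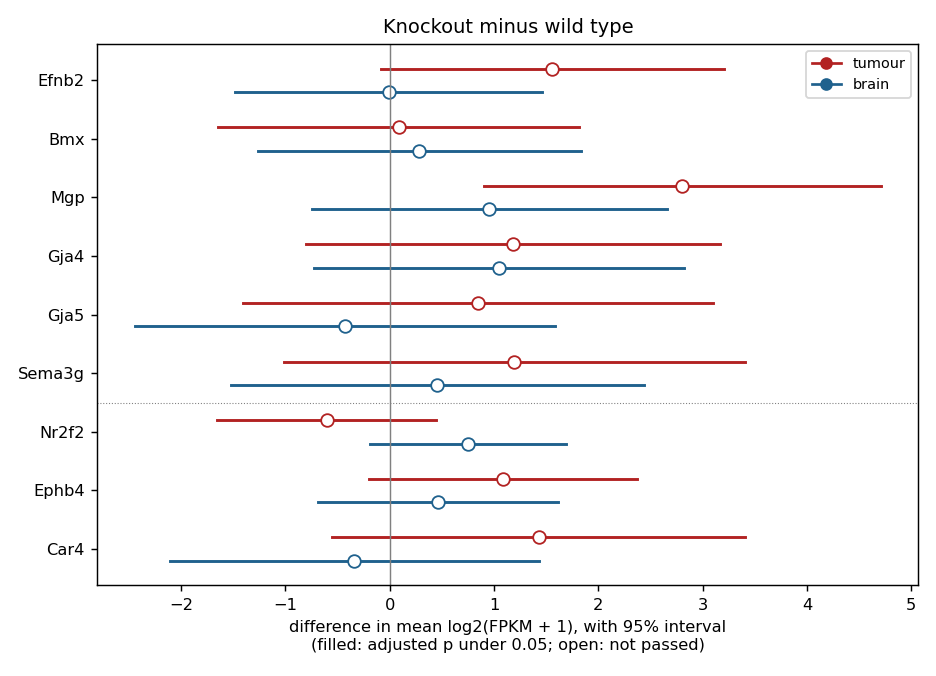
Knockout minus wild type difference in mean log2(FPKM + 1) of each gene in tumour and in brain, with 95% intervals; all points are open because no gene passed. The tumour interval of Mgp, from 0.90 to 4.71, is the one that lies wholly right of 0.

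Other genes of the same vessel types were counted from 4 lists. Over all genes tested, 17.6% fell and 12.6% rose in tumours in the mean of both genotypes, with a median of -0.25. Of 20 other arterial genes, 8 fell and 1 rose, with a list median of -1.31. Cytl1, a small secreted protein, was 0 and 6.74 FPKM in knockout tumours and 0 in the 3 wild type tumours, against 15.9, 40.1 and 11.3 FPKM in knockout brains and 23.1, 16.1 and 19.8 FPKM in wild type brains. Gkn3, an arterial marker of mouse brain, was listed at 0 in both knockout tumours and at 1.68, 0 and 0 FPKM in wild type tumours, against 19.4, 24.8 and 10.9 FPKM in knockout brains and 0, 44.3 and 28.2 FPKM in wild type brains. Both fell (limma adjusted p = 0.00113 for Cytl1 and 0.0113 for Gkn3). Fbln5 and Eln, which build elastic fibres, fell by 1.89 and 1.95, and Acvrl1, a receptor for bone morphogenetic proteins, by 1.23 (limma adjusted p = 0.00854, 0.00906 and 0.0153). Clu, Jag2 and Nrp1 were the other genes that fell. Clu is also abundant in astrocytes, whose marker sums were lower in every tumour than in any brain. Single astrocyte markers were split, and of the 6 tested 3 fell and 1 rose. Gfap ran from 67.7 to 105 FPKM in tumours and from 12.7 to 38.7 FPKM in brains. Cxcr4, a chemokine receptor, rose (limma adjusted p = 0.0209) and was listed at 0 in all 6 brain libraries, and at 1.50 and 2.96 FPKM in knockout tumours and 3.01, 0 and 2.93 FPKM in wild type tumours. The Notch ligand Dll4 (-1.13, limma adjusted p = 0.170) and the Notch target Hey1 (-1.80, limma adjusted p = 0.0557) did not pass. By genotype, 0 of the 20 passed in knockouts with limma, and 4 fell in wild types, Cytl1, Acvrl1, Fbln5 and Clu. In knockouts 6 of the 20 had a limma unadjusted p under 0.05, a threshold for which no share of all genes was computed.

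Of 15 other venous genes, 3 fell and 2 rose, with a list median of -0.55, shares near the 17.6% lower and 12.6% higher among all genes. Emcn, a sialomucin of venous and capillary endothelium, and Nrp2, a neuropilin, fell by 1.21 and 0.97 (limma adjusted p = 0.0233 and 0.0479). In each genotype alone 1 gene of the list fell and 0 rose. Ctsc, a lysosomal protease also made by macrophages, and Tmsb10, an actin-binding peptide, rose by 1.65 (SE 0.51, limma adjusted p = 0.0313) and 1.99 (SE 0.67, limma adjusted p = 0.0418). The 9 markers of microglia and macrophages, which summed to between 109 and 292 FPKM in tumours and between 37.1 and 64.6 FPKM in brains, moved the same way, and their part in the result was not tested. Vwf (-0.43), Ackr1 (-1.03) and Selp (0.63), genes of venous endothelium, did not pass.

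Of 10 other capillary genes, 6 fell and 0 rose, with a list median of -2.29, the lowest of the 4 lists. Slco1a4, a carrier of organic anions at the blood-brain barrier, was 17.2 and 36.5 FPKM in knockout tumours and 12.2, 7.09 and 32.5 FPKM in wild type tumours, against 392, 276 and 253 FPKM in knockout brains and 342, 334 and 354 FPKM in wild type brains. Cxcl12, the ligand of Cxcr4, was 11.1 ± 3.72 FPKM in knockout tumours (SD, n = 2) and 4.47 ± 2.17 FPKM in wild type tumours (SD, n = 3), against 103 ± 8.10 and 85.7 ± 10.8 FPKM in knockout and wild type brains (SD, n = 3 each). Both genes fell in each genotype, as did Spock2 and the transporter Slc22a8. In the mean of both genotypes the change was -4.01 for Slco1a4 (SE 0.36, limma adjusted p = 3.12e-05) and -3.59 for Cxcl12 (SE 0.29, limma adjusted p = 1.59e-05), beside -4.13 for Car4. Mfsd2a, the lipid transporter of the barrier, and Slc16a1, a lactate transporter, fell by 1.82 and 1.19.

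A list of 20 partners and regulators held ephrins, Eph receptors, connexins, neuropilins and transcription factors. Of these, 11 fell and 0 rose, with a list median of -1.21. Klf2, a transcription factor induced by flow, was 20.7 and 17.5 FPKM in knockout tumours and 15.6, 27.1 and 14.8 FPKM in wild type tumours, against 113, 94.8 and 125 FPKM in knockout brains and 101, 118 and 143 FPKM in wild type brains. Klf2 fell by 2.55 (SE 0.25, limma adjusted p = 4.85e-05) with no overlap between tissues. Its relative Klf4 fell by 2.19 (SE 0.38, limma adjusted p = 0.00177), and these were the 2 genes of the list that also fell in knockouts alone. Gjc1, another connexin, fell by 2.25, and Bmp4, a bone morphogenetic protein, by 1.70. Efnb3, Ephb6 and Ephb1 fell by 2.61, 2.93 and 2.35, and these genes are also transcribed in neurons, whose marker sums are given above. Gja1, Nrp1, Nrp2 and Sox18 fell by less, and Gja1 is also the main connexin of astrocytes. Sox17, an arterial transcription factor, was 140 FPKM in wild type tumour 2 and between 8.91 and 21.0 FPKM in the other tumours, and it did not pass (limma adjusted p = 0.0607). Rbpj differed by 1.08 without passing (limma adjusted p = 0.0934). Of the 11 endothelial markers 8 fell and 0 rose, with a median of -1.33.

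Relative to those markers the lists changed. The median was 0.18 for other arterial genes, 0.94 for other venous genes, -0.80 for other capillary genes and 0.28 for partners and regulators, against 1.23 over all genes tested. On that scale Cytl1 fell and Cxcr4 rose among the arterial genes. Among the 15 venous genes 0 fell and 6 rose, Aplnr, Ctsc, Icam1, Lcn2, Selp and Tmsb10, a share of risers below the 46.2% of all genes called higher on this scale. Cxcl12, Slc22a8, Slco1a4 and Spock2 still fell among the capillary genes, while Ivns1abp and Rgcc rose. Klf2 was the 1 partner that still fell, and Foxc2 and Rbpj rose. Between genotypes, 0 genes of the 4 lists passed with limma in tumour or brain. In tumour 1 of 20 arterial, 0 of 15 venous, 4 of 10 capillary and 2 of 20 partner genes had a limma unadjusted p under 0.05. The smallest was 0.00365 for Tfrc. In brain 3 arterial genes and 0 of the other lists had one. The share of all genes at that unadjusted threshold was not computed, so these counts are not a result about the lists.

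**Figure D5:**
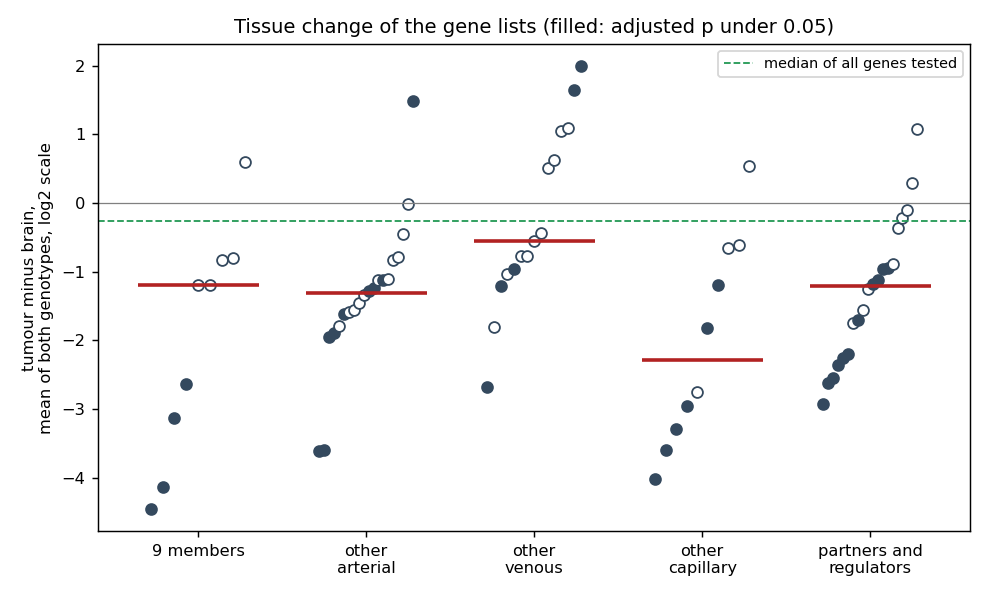
Tumour minus brain change, mean of both genotypes on the log2 scale, of the 9 genes and of the genes of 4 lists; each point is a gene, filled where the adjusted p was under 0.05, red bars are list medians and the dashed line is the median of all genes tested. The capillary list has the lowest median at -2.29 and the venous list the highest at -0.55, on FPKM as deposited.

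Genes with the pattern most like each of the 9 were sought over 11 libraries among 10343 genes, by the mean absolute difference between centred log2 values, where a smaller value is a closer pattern for the same member. Bmx lay closest to Smad6 (0.35), and Efnb2 to Mdga2 (0.34), Tmem196 (0.36) and Ptprg (0.37). The genes near Car4 included Glrb (0.32) and Camk2n1 (0.38), of which Glrb is a glycine receptor subunit of neurons. Of the 10 neuron markers, 10 fell in tumours in the mean of both genotypes, where 17.6% of all genes fell. Their list median was -3.09. The part of neurons in the patterns of Efnb2 and Car4 was not tested. The gene nearest to Mgp was mt-Co1 at 0.80. Of 13 mitochondrial mRNAs, from 4 (knockout brain 1) to 13 (wild type tumour 2) were listed at 0 in a library. A listed 0 can be a failed estimate, so this match is not read as a shared pattern. Nr2f2 lay closest to Stx7 (0.20) and Ephb4 to Eogt (0.19). The distance grows with the spread of the gene itself, so distances of different members are not ranked. The mean absolute deviation over libraries was 2.35 for Mgp, 0.56 for Nr2f2 and 0.58 for Ephb4. Gja4 lay closest to Glrx3 (0.34), Gja5 to Foxn3 (0.36) and Sema3g to Ism1 (0.33). Within the 9, Efnb2 and Bmx were each other's nearest at 0.70, and Nr2f2 and Ephb4 were each other's nearest at 0.54. All points share the 11 libraries, whose tissue difference and zeros enter every distance.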

How the data were processed

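The deposited files give a single FPKM for each gene in each library, per the file headers. TopHat2 2.1.1, Cufflinks 2.2.1 and the build GRCm38 are named per the submitters' processing notes, and the sources used here do not state their roles, the annotation or the use of strand. Each library listed 46073 entries, and 498 entries of 216 repeated symbols were summed, none of a gene in the lists. Between 0.214% and 1.29% of low genes lay on the most frequent ratio of 2 libraries, so no whole reads were recovered and depth is unknown.

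Genes with at least 1 FPKM in at least 2 libraries were tested on log2(FPKM + 1), with a pseudocount of 1 and no further scaling. Limma 3.58.1 in R 4.3.3 fitted 4 group means to 11 libraries with 7 residual degrees of freedom (lmFit, eBayes with a variance trend), in 7 contrasts. Tests were two-sided, adjusted by Benjamini-Hochberg over all genes within a contrast, at 0.05. Counts at an unadjusted p under 0.05 have no share of all genes beside them and are not read as results. The scripts were tested on simulated data. The 9 genes, lists and naming rule were chosen with earlier results of these data known. All 9 are named in each contrast, with list members by smallest p, plus genes among the 3 nearest in pattern. Single values of 2 genes are not reported here. Dll4, Hey1, Sox17, Rbpj, Vwf, Ackr1 and Selp, and the list genes that passed only relative to the endothelial markers, were named after their values were seen. Emcn, Nrp1, Nrp2 and Sox17 stand in 2 lists each. Libraries are separate mouse samples per the labels' protocols. Their numbers only name them. Alternatives were pseudocounts, filters, scalings, variance settings, library weights, the groups fitted and left-out libraries.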

Additional observations from a re-analysis of the deposited data

How the results depend on the processing

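In the mean of both genotypes, Bmx, Mgp and Car4 passed in all 21 alternative settings and Efnb2 in 20 of 21, lost only relative to the endothelial genes. Nr2f2 passed in 3 of 21, and Ephb4 and Sema3g in 1 of 21 each, all as falls. Gja4 passed in 1 of 20, as a rise. In wild types Mgp passed in all 22 settings, and the count of 4 members became 1 (Mgp) when only the wild type libraries were fitted, with 614 genes called in all against 3024, from fewer libraries. The knockout count of 2 members rested on few libraries. It became 0 with a pseudocount of 0.1, with upper quartile scaling or relative to the endothelial genes, and 1 (Bmx) with a pseudocount of 0.5, no filter or no variance trend. It became 5 with library weights or with the knockout libraries alone (adding Efnb2, Nr2f2 and Car4), where 4126 and 2803 genes were called in all against 1105, and the share higher was 45.2% and 47.1% against 67.7%. It ranged from 0 to 4 when 1 library was left out, 0 without any single knockout library and 4 without wild type tumour 2, as without wild type tumours 2 and 3 together. The cause of the changes by pseudocount, filter, variance setting and weights was not tested. Relative to the endothelial genes Nr2f2 in wild types turned to 1.48, and the members that did not overlap became 1 between tissues and 2 between knockout and wild type tumours. These non-overlap alternatives were chosen after seeing the data. Upper quartile scaling and quantile normalization moved the median of all genes in wild types from -0.26 to -0.16 and 0.01, and the share of calls higher in tumour from 39.7% to 51.2% and 52.2%. Genotype counts were 0 of 9 in every setting. No paired analysis was possible because the sample numbers run through the series and no group shares numbers with another. Depth is unknown, and the precision is limited by groups of 2 or 3 libraries and by values listed at 0.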
